A study of Arabidopsis thaliana with 12 samples.

Results

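The chloroplast NADH dehydrogenase-like (NDH) complex and the chlororespiration protein PIFI are described here through the transcripts of their nuclear genes in Arabidopsis thaliana. The members were 17 genes chosen by locus, and a gene was used if a probe was annotated to that gene and to no other. This left 2 of 17 genes, PIFI (AT3G15840) and NdhN (AT5G58260), out of 3248 features tested on the array. Both lay above the floor set on low intensities in all 12 samples, so the filter on dim probes left out neither of them. None of the other 15 genes was on any probe with an annotation entry, probes of several genes included. They were all 5 genes of subcomplex B, all 3 lumenal genes, all 4 assembly genes and 3 of the 4 genes of subcomplex A, and they were not analysed here.

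The samples were 6 titled as wild type (WT) and 6 titled as the stn7 mutant, both in the ecotype columbia 0, measured from total RNA on 1-channel arrays. STN7 is the thylakoid kinase of state transitions, and neither it nor STN8 or TAP38, a kinase and a phosphatase of the same membrane, was on a probe with an annotation entry, so the labels were not checked by the mutated gene. The labels give no allele, tissue, age or light condition, and none of 11 markers of leaf, root, seed and senescing tissue was on an annotated probe. Only stn7 sample 1 had a source name that says mutant, the source name of the other 5 stn7 samples was that of the WT, and the titles were used for grouping.

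Consecutive samples of a group (1 with 2, 3 with 4, 5 with 6) shared their deviations from the group mean, with correlations between 0.188 and 0.632 over the features. The highest correlation with any sample outside the pair was 0.170, so the weakest pair stood out little. Each consecutive pair was averaged into 1 replicate, numbered 1 to 3. The precision is limited by these 3 replicates per group. Nothing in the labels ties a replicate to a plant of its own, so the p-values cover the spread among these samples, which may be technical. The median relative intensity of a sample was 0.297 to 0.369 for WT and 0.354 to 0.414 for stn7.

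The NDH complex sits in the thylakoid membrane, takes electrons from reduced ferredoxin and passes them to plastoquinone, the carrier that joins photosystem II to the cytochrome b6f complex. It is one route of cyclic electron flow around photosystem I, and in darkness it feeds chlororespiration, the reduction and re-oxidation of plastoquinone without light. STN7 is activated when plastoquinone is reduced, so the kinase reads the same carrier that the complex reduces. In leaves the NDH complex is of low abundance, and its activity is commonly read as a brief rise of chlorophyll fluorescence after the light is turned off.

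PIFI is named for that fluorescence rise, which is lost in plants without it, and it is a stromal protein tied to the non-photochemical reduction of plastoquinone. Its normalized intensity had a lowest value of 0.172, a median of 0.203 and a highest value of 0.215 in the 6 WT samples. In the 6 stn7 samples the lowest value was 0.260, the median 0.293 and the highest 0.337. All 6 stn7 samples were thus above all 6 WT samples, as they were for 10.7% of all features. The deposited values, before any scaling between arrays, ran from 0.144 to 0.224 in WT and from 0.290 to 0.388 in stn7, and here too all stn7 samples were the higher, as for 16.1% of all features in values that were shifted upward in stn7 as a whole.

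Within the groups the averaged WT replicates of PIFI stood at 0.203, 0.212 and 0.178, so samples 5 and 6 were the dim pair. The stn7 replicates stood at 0.305, 0.261 and 0.312, with samples 3 and 4 the lowest. Consecutive samples of PIFI differed by 0.01 to 0.22 log2, and the larger value belonged to stn7 samples 5 and 6.

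PIFI transcript was higher in stn7 by 0.56 log2 (SE 0.15, n = 3 per group, limma adjusted p = 0.0466), from -2.34 ± 0.13 log2 (SD) in WT to -1.78 ± 0.14 log2 in stn7. This is a 1.48-fold difference, with a 95% confidence interval from 1.16-fold to 1.89-fold. Of all features, 24.4% had a larger difference in either direction and 10.9% a more positive one. PIFI was the 1 of the 2 members that passed the adjusted p of 0.05, while 15.2% of all 3248 features passed in either direction with 6.53% higher and 8.68% lower in stn7. Its 3 stn7 replicates lay above its 3 WT replicates, as did those of 20.8% of all features, and 38.7% of features had replicates that did not overlap in either direction.

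The call of PIFI lay close to the threshold. It was lost with a block on the replicate number (0.56 log2, limma adjusted p = 0.0719). It was also lost without any 1 of the 6 averaged replicates, with an adjusted p between 0.0582 and 0.122 and a difference between 0.49 and 0.65 log2. Without stn7 sample 1, the sample whose source name says mutant, it passed (0.55 log2, adjusted p = 0.0478), and with that sample as the only stn7 sample the difference was 0.67 log2. The fit of that lone sample takes its spread from WT alone.

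**Figure D1:**
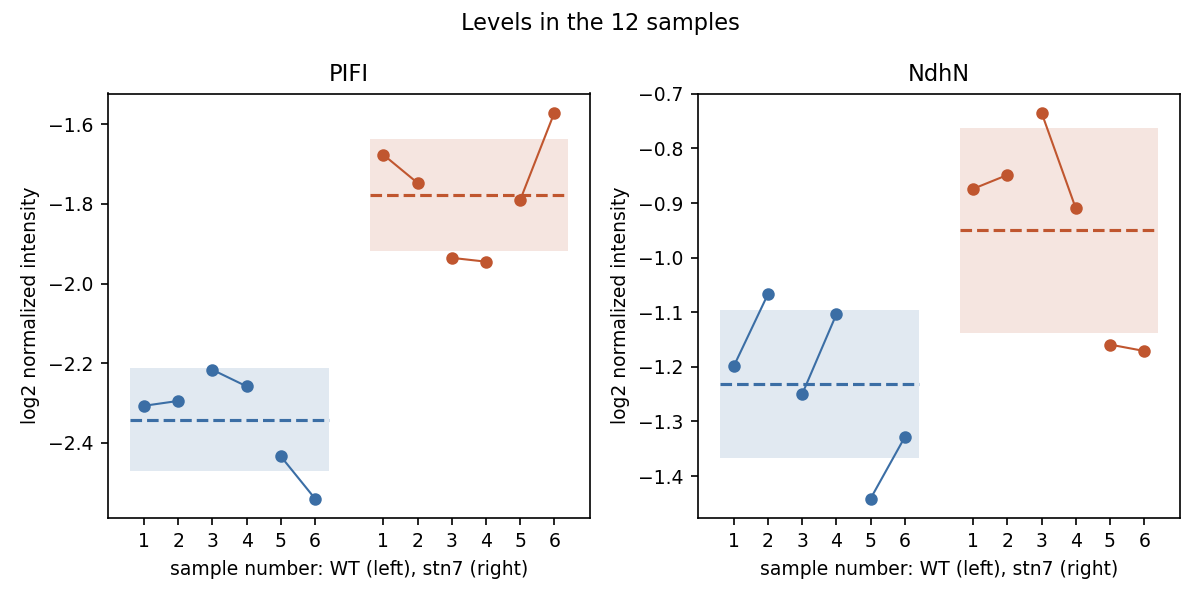
Log2 normalized intensity of PIFI (left panel) and NdhN (right panel) in the 6 WT (blue) and 6 stn7 (orange) samples, with lines joining the consecutive samples that were averaged, dashed lines for the mean of the 3 averaged replicates and shaded bands for ± 1 SD. All 6 stn7 samples lie above all WT samples for PIFI, while for NdhN stn7 samples 5 and 6 lie among the WT samples.

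NdhN is a nuclear-encoded subunit of subcomplex A, the part of the NDH complex that faces the stroma. Its normalized intensity had a lowest value of 0.368, a median of 0.428 and a highest value of 0.478 in WT. In stn7 the lowest value was 0.444, the median 0.539 and the highest 0.601. All 6 stn7 samples lay above the WT median, but 4 of them lay above every WT sample and samples 5 and 6 did not. This overlap is that of the normalized values. In the deposited ones all 6 stn7 samples (0.502 to 0.654) lay above all 6 WT samples (0.306 to 0.472). The same held for PIFI and for 16.1% of all features, in values whose median difference over all features was 0.19 log2. The averaged WT replicates stood at 0.456, 0.442 and 0.383, and the stn7 replicates at 0.550, 0.566 and 0.446, so the pair of samples 5 and 6 was the lowest in both groups.

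NdhN differed by 0.28 log2 between stn7 and WT (SE 0.16, n = 3 per group, limma adjusted p = 0.271), which did not pass. The 95% confidence interval of the difference, from -0.09 to 0.66 log2, includes both no difference and one as large as that of PIFI. Means were -1.23 ± 0.13 log2 (SD) in WT and -0.95 ± 0.19 log2 in stn7. With the 12 samples taken as separate replicates NdhN passed (adjusted p = 0.0440), as did 1283 of all features against 494 with averaged samples.

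The 2 members were also compared within the arrays, where a scaling common to both probes cancels. A shift tied to the probe number, described below, need not be common to both and so need not cancel. The log2 ratio of PIFI to NdhN was higher in stn7 than in WT by 0.28, from -1.11 ± 0.05 (SD, n = 3) to -0.83 ± 0.30 (SD, n = 3). An exact two-sided permutation test over the replicates gave p = 0.3. The smallest p possible in this design is 0.1, above 0.05, so the test could not decide whether the members differ. The spread of the ratio came from the stn7 samples, in which PIFI was lowest in samples 3 and 4 and NdhN was lowest in samples 5 and 6. The members therefore did not follow each other among the stn7 replicates, whereas in WT both were lowest in samples 5 and 6.

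The differences on this array followed the probe number, and the values of both members are given with this beside them. Probe numbers were placed in 48 sets of 6 consecutive numbers that recur in the same order along the array, a scheme known from an earlier analysis of these values. PIFI shared its set with 66 other features, whose median difference was 0.24 log2, with 54 of them above 0. In this set 4 other features were called higher and 0 lower. NdhN shared its set with 64 others at a median of 0.26 log2, with 52 above 0, 8 called higher and 1 lower. NdhN was thus at about the median of its own set, while PIFI lay above the middle 50% of its set, which ran from 0.07 to 0.39 log2.

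With each sample centred on the median of each set, the difference of PIFI was 0.34 log2 (SE 0.16, limma adjusted p = 0.224), and its 95% confidence interval ran from -0.02 to 0.70 log2. PIFI did not pass there. Its 3 stn7 replicates lay above the 3 WT replicates by 0.0059 log2, as did those of 16.7% of all features by some margin, and its single samples overlapped. NdhN came to 0.05 log2 (SE 0.14, adjusted p = 0.866). The log2 ratio of PIFI to NdhN, whose probes lie in different sets, was then higher in stn7 by 0.29. It went from -1.11 ± 0.06 (SD, n = 3) in WT to -0.82 ± 0.32 (SD, n = 3) in stn7, a spread in stn7 larger than the difference. After this centring 5.67% of all features passed, 1.79% of all as higher in stn7, and neither member was among them. The part of the probe number in the differences was not tested further.

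**Figure D2:**
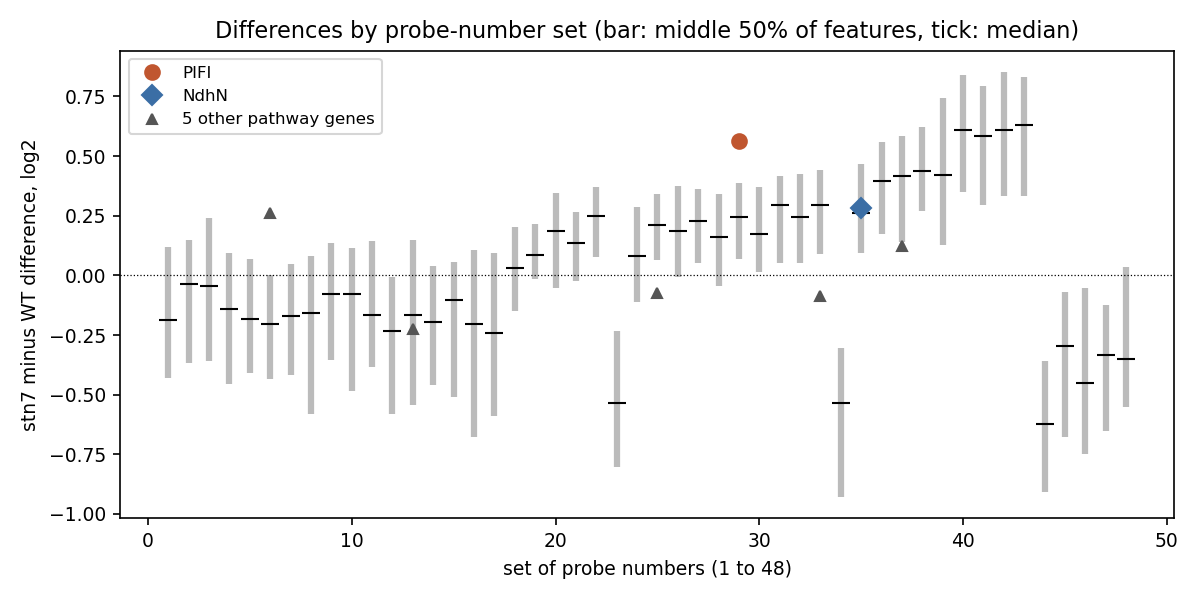
Difference between stn7 and WT (log2, vertical axis) in each of 48 sets of probe numbers (horizontal axis), with grey bars for the middle 50% of the features of a set and ticks for its median, and with PIFI (circle), NdhN (diamond) and 5 other pathway genes (triangles) in their own sets. NdhN at 0.28 log2 sits near the median of its set (0.26 log2), and PIFI at 0.56 log2 above that of its set (0.24 log2).

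A list of 34 further genes of the NDH complex, its assembly, its electron donors and the other cyclic route was read in the same fit. Of these, 5 had a probe of their own and 3 shared a probe with another gene and were not counted. None of the 5 passed, beside 15.2% of all features, and none had an adjusted p below 0.425. Their median difference was -0.07 log2, beside 0.05 log2 over all features, and 2 of the 5 were above 0, beside 54.7% of all features. Over the members and these genes together 1 of 7 passed, which is near that share of all features, with 4 of 7 above 0.

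NdhS (AT4G23890) is the subunit of the complex that binds ferredoxin. Its normalized intensity ran from 15.6 to 18.0 in WT, with a median of 17.1, and from 11.5 to 18.0 in stn7, with a median of 14.5. After normalization the groups overlapped, with stn7 samples 3 and 4 as bright as WT in these values and samples 5 and 6 the dimmest. Normalization brought unlike deposited values of this bright probe to the same level. WT sample 2 (21.4 as deposited) and stn7 sample 4 (15.3 as deposited) both came to 17.1. The overlap is thus that of the normalized values only. In the deposited values the groups did not overlap, with stn7 samples at 10.5 to 15.3 and WT samples at 16.5 to 21.4. For 7.97% of all features the deposited stn7 samples all lay below WT in this way. With normalization the difference was -0.23 log2 (SE 0.18, adjusted p = 0.425), and it was -0.06 log2 after set centring. It was -0.46 log2 in the values as deposited and -0.70 log2 with arrays centred on their median, and did not pass there either. Without 1 averaged replicate it ran from -0.37 log2 (without stn7 replicate 2) to -0.079 log2 (without stn7 replicate 3).

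Among the assembly and expression factors, CRR21 (AT5G55740) is a pentatricopeptide repeat protein needed for editing of the plastid ndhD transcript. Its difference was 0.12 log2 (SE 0.19), and -0.27 log2 after set centring, so the sign turned. CRR41 (AT1G51100), a stromal factor in the assembly of subcomplex A, was at -0.09 log2 (SE 0.16). After set centring CRR41 was at -0.35 log2 (SE 0.14) and did not pass (adjusted p = 0.158), and its sign turned in the values as deposited (0.13 log2) and with sets started 5 numbers later (0.42 log2). Cpn60beta4 (AT1G26230), a chaperonin subunit that folds the NdhH subunit, was at -0.07 log2 (SE 0.19) and at 0.11 log2 in the values as deposited. It had the least even consecutive samples of the 7 genes, with samples 1 and 2 of stn7 1.301 log2 apart.

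NTRC (AT2G41680), a plastid thioredoxin reductase that acts on redox-regulated plastid enzymes, was at 0.26 log2 (SE 0.27, adjusted p = 0.546). Its normalized intensity ran from 0.329 to 0.545 in WT and from 0.351 to 0.707 in stn7. In both groups samples 5 and 6 were the brightest pair, and the difference was 0.47 log2 without WT replicate 3 and 0.023 log2 without stn7 replicate 3. NTRC lay in a set of probe numbers with a median of -0.21 log2, and after set centring its difference was 0.47 log2 (SE 0.24, adjusted p = 0.267).

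**Figure D3:**
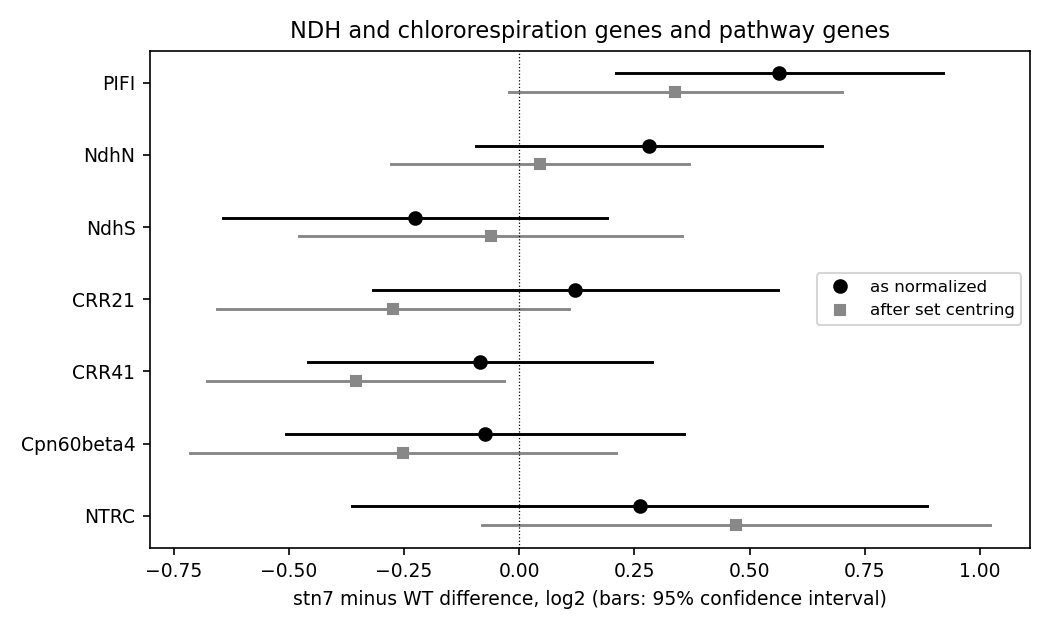
Difference between stn7 and WT (log2, horizontal axis) for PIFI, NdhN and the 5 other pathway genes, with 95% confidence intervals from limma, as normalized (black circles) and after set centring (grey squares). As normalized only the interval of PIFI (0.21 to 0.92 log2) lies apart from 0, and after set centring only that of CRR41 does (-0.68 to -0.03 log2), with no adjusted p under 0.05 there and a sign that turned with sets started 5 numbers later.

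The genes most like each member were taken as those with the smallest root mean square difference between log2 profiles over the 12 samples, each profile centred on its own mean. Of 458 other single-gene features above the lowest 25% by level, the nearest to PIFI were AT1G73470 (0.0957 log2), RAP74 (0.115 log2), which encodes the large subunit of the transcription factor TFIIF, and AT3G22150 (0.117 log2). The median over the 458 was 0.383 log2. The step between the groups was part of the profiles compared, so the differences of these 3 genes, 0.67, 0.66 and 0.50 log2, follow from how they were chosen. They lay in probe-number sets other than that of PIFI, and after set centring the differences were 0.23, 0.27 and 0.07 log2. The nearest to NdhN were AT5G40470 (0.0822 log2), AT3G61870 (0.0970 log2) and AT4G30150 (0.102 log2), against a median of 0.340 log2.

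The sizes and calls of both members varied with the processing. Over 41 alternative settings PIFI was higher in stn7 in all 41, between 0.27 and 0.80 log2, and passed in 15. Of these 15, 10 were fits that left out 1 sample and 2 took the 12 samples as separate replicates. All settings used these same samples or a part of them. NdhN was higher in 37 of 41, between -0.07 and 0.51 log2, and passed in 2, both of which took the 12 samples as separate replicates. In the values as deposited the array as a whole was shifted, with a median of 0.19 log2 in place of 0.05, and PIFI (0.80 log2) and NdhN (0.51 log2) lay higher as well.

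**Figure D4:**
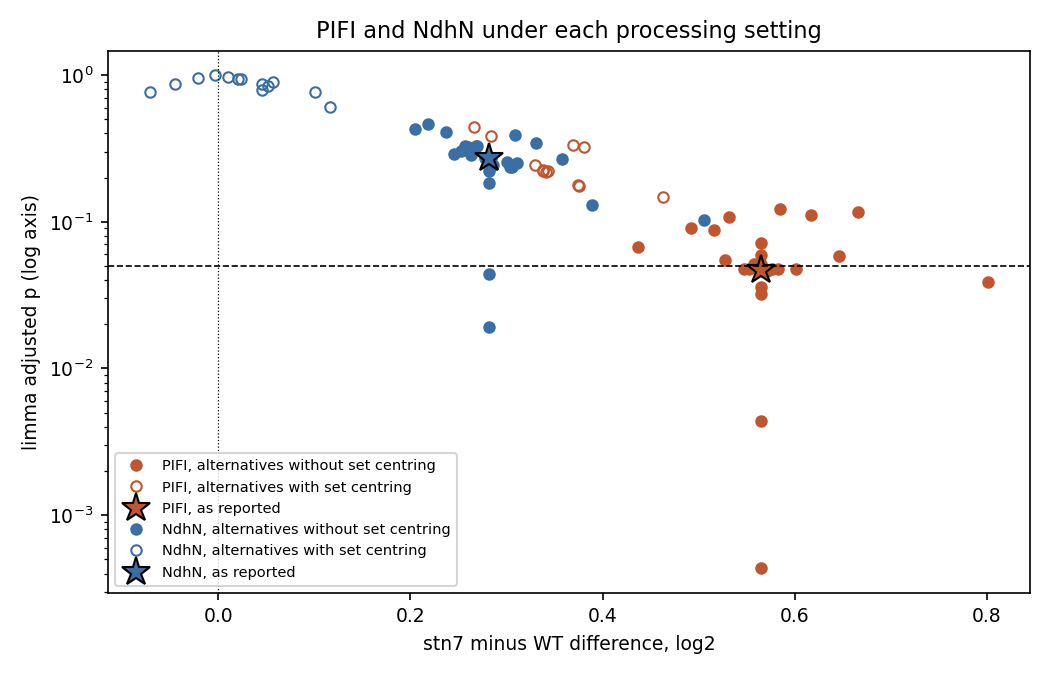
Difference between stn7 and WT (log2, horizontal axis) against the limma adjusted p (log axis) of PIFI (orange) and NdhN (blue) as reported (stars), under alternatives without set centring (filled) and with set centring (open), with the dashed line at 0.05. PIFI lies above 0 in all 41 alternatives but under the line in 15, and no setting with set centring places either gene under the line.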

How the data were processed

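The members and gene lists were chosen with earlier results of these data known. The authors deposited relative intensities on a linear scale in 1 table, with column means between 1.01 and 1.07 and between 4.66% and 6.58% exact zeros per sample; no label or header used here states their scanner, background correction or scaling. Of 3439 probes 3437 had values, and the platform annotation gave 1 gene for 692, of which 690 were found in the RefSeq table of TAIR10.1. Arrays were quantile-normalized, intensities under their 10th percentile (0.0702) were raised to it before log2, probes that never exceeded this floor (188) were dropped, and 2 probes of 1 locus were averaged. The test was limma's moderated fit (version 3.58.1, R 4.3.3) of stn7 against WT with no block, two-sided, and a feature passed at a Benjamini-Hochberg adjusted p under 0.05 over all 3248 features. The averaging of consecutive samples, the floor and set centring (48 recurring sets of 6 probe numbers, the median deviation of each set subtracted in each sample) were taken from an earlier analysis that had seen the values. Every member with a probe of its own was named, with the listed pathway genes that had one and the 3 nearest profiles of each member. The fit was also run on simulated data with independent noise, no shift tied to the probe number and planted differences larger than that of PIFI. That run does not bear on the call of PIFI. Alternatives covered scaling, floor, dim probes, replicate block, separate samples, variance model, probe number, left-out samples and source names. Plots used matplotlib 3.10.9 and Python 3.11.15.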

Additional observations from a re-analysis of the deposited data

Results flagged for a closer look

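Across the 7 genes and 2 groups, 1 of the 14 sets of 6 samples held a sample far from the others. For CRR41 in stn7, sample 5 was the lowest, at a normalized intensity of 0.386 against 0.486 to 0.539 in the other 5 stn7 samples, and its gap to the nearest sample was 0.6905 of the range of the group, over the critical value of Dixon's test. Chance places about 1 in 20 such groups over it, and consecutive samples are not independent. Sample 5 was also the lowest WT sample of CRR41 (0.434), under the critical value there.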

How the results depend on the processing

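The member list rests on 2 probes, the signal over background is not known, and the call of PIFI was near the threshold. PIFI kept its direction in all 41 alternatives run. It passed in the values as deposited (0.80 log2), with the higher floor and without dim features, and in 10 of the 12 fits that left out 1 sample (0.53 to 0.60 log2 over the 12). It missed with median centring (0.56 log2, adjusted p = 0.0516), an offset equal to the floor (0.44 log2), a trended and robust variance model (0.56 log2, adjusted p = 0.0591), set centring (0.34 log2), without WT sample 4 (adjusted p = 0.0515) and without stn7 sample 6 (adjusted p = 0.0548). Without 1 averaged replicate it ranged from 0.49 to 0.65 log2, and with set centring as well from 0.27 to 0.46 log2, and it missed in all 12 of these fits. With the sets started 1 to 5 numbers later, chosen after seeing the data, PIFI was at 0.37, 0.34, 0.34, 0.38 and 0.33 log2. The cause was not tested. With stn7 sample 1 as the only stn7 sample PIFI was at 0.67 log2 and 8 features were called, in a fit that assumes this sample varies like the WT and so says little of the call.

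Same-numbered averaged replicates of both groups correlated at 0.0901 to 0.171, and same-numbered single samples at 0.0963 to 0.170, all positive. No label pairs the numbers, so the main fit had no block. Whether equal numbers share a batch was not tested. With the replicate block PIFI did not pass (0.56 log2, adjusted p = 0.0719), nor with set centring and the block (0.34 log2), which called 117 features, and the block alone called 407. NdhN passed only with 12 separate samples (0.28 log2, adjusted p = 0.0440) and with these and the block on the sample number (0.28 log2, adjusted p = 0.0190), where 2 of the 2 members were called, and 1283 and 1442 features, and where NTRC passed with the block (0.26 log2).

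Members called fell from 1 to 0 in each setting where PIFI missed. Against 494 features called, set centring gave 184, its other starts 200, 213, 210, 208 and 210. Counts without 1 averaged replicate were 4 (without stn7 replicate 1) to 284 (without stn7 replicate 2), 45 without WT replicate 1, 30 without WT replicate 2, 272 without WT replicate 3 and 218 without stn7 replicate 3, and after set centring 12 without WT replicate 1, 22 without WT 2, 66 without WT 3, 84 without stn7 1, 105 without stn7 2 and 131 without stn7 3. Leaving out 1 sample gave 419 to 493. The split of higher and lower calls was 212 and 282 as reported, 289 and 179 in the deposited values and 133 and 347 with median centring.

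Signs turned for values that did not pass. NdhN came to -0.045 and -0.071 log2 with sets started 4 and 5 numbers later, to -0.0037 with set centring and without stn7 replicate 2, and ranged from -0.021 to 0.12 log2 over the 6 such fits. CRR21 was at -0.27 log2 with set centring, with and without the block, at -0.26, -0.27, -0.26, -0.24 and -0.26 with the later starts, from -0.027 to 0.24 without 1 replicate, and at -0.30, -0.36, -0.15, -0.37, -0.26 and -0.19 with both. CRR41 was at 0.13 log2 without scaling, at 0.12, 0.33 and 0.42 with sets started 3, 4 and 5 later, and from -0.16 to 0.011 without 1 replicate. Cpn60beta4 was at 0.11 log2 without scaling and 0.096 with the higher floor, from -0.19 to 0.056 without 1 replicate and from -0.29 to 0.14 without 1 sample. NTRC was at -0.017 log2 with stn7 sample 1 alone, and NdhS at 0.023 with sets started 4 later and from -0.18 to 0.096 with set centring and 1 replicate left out.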
